A study of Mus musculus with 10 samples.

Results

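Tiam1 and Dcc were the genes named by several differentially methylated regions (DMRs) that all lay in exons or introns. Their regions were chosen by taking every region of the deposited list whose nearest gene was Tiam1 or Dcc, which gave 5 of 577 regions, 3 for Tiam1 and 2 for Dcc. The list compares sperm DNA of F1 males (the first generation of offspring) of the C3H/HeN strain, aged 17 to 19 weeks, measured by reduced representation bisulfite sequencing (RRBS). The arsenic group was 5 males born to dams exposed to arsenite during pregnancy, and the control group was 5 males born to dams that were not exposed. Within each group the males came from different litters, and the labels name no engineered allele in either group. Sperm had swum out of the cauda epididymis, and somatic cells had been lysed in its preparation. RRBS cuts DNA with MspI at the motif CCGG, reads the fragments and finds unmethylated cytosines by their conversion with bisulfite. Each region has 1 value in the list, the methylation of the arsenic group minus that of the control group, in percentage points. Values of single animals, group levels and read depths were not analysed here, so the spread between animals and the depth behind each region are unknown. The list holds only regions that the authors had called, and the members were selected on that same list, so their differences, DMC numbers and q-values are the authors' values, given as a description and not tested again.

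TIAM1 is a guanine nucleotide exchange factor that loads the small GTPase RAC with GTP and through it changes the actin cytoskeleton, cell adhesion and migration. DCC is a transmembrane receptor for netrin-1 that guides growing axons, and RAC is among the proteins that act downstream of it. DNA methylation in mammals sits mostly on the cytosine of CpG dinucleotides, and CpGs in gene bodies and in retrotransposons are commonly methylated in sperm. No RNA was measured, so nothing below concerns the expression of either gene.

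All 5 regions had lower methylation in the arsenic group than in the control group, as did 494 of the 577 listed regions (85.6%), so the common direction of the 5 is that of the list. Exons and introns of Tiam1 are numbered here as in the RefSeq transcript NM_001145886, and the numbers differ in some other transcripts. In Tiam1 the differences were -11.9 points in exon 28, -13.2 points in exon 4 and -13.1 points in intron 1. In Dcc they were -10.8 points in intron 12 and -14.5 points in intron 5. Both genes averaged -12.7 points over their regions. The 3 regions of Tiam1 lay outside annotated repeats, 2 of them in coding exons, whereas both regions of Dcc lay in retrotransposons within introns.

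**Figure D1:**
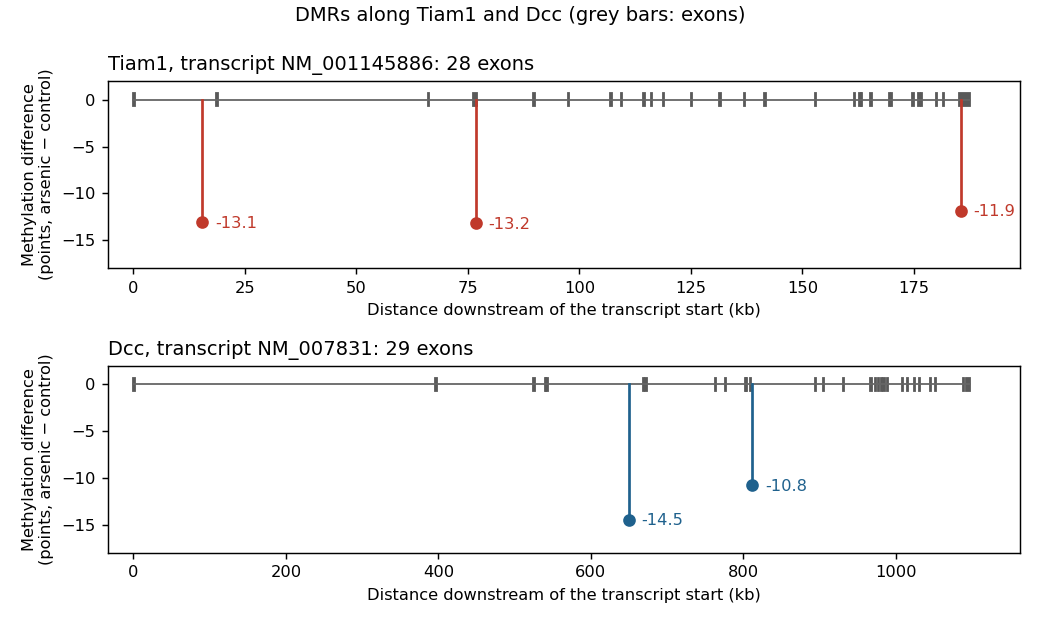
The 5 regions along their genes, with the distance downstream of the transcript start in kb on the x axis, exons as grey bars and the methylation difference (arsenic minus control, in percentage points) on the y axis. The regions of Tiam1 lie between -11.9 and -13.2 points near the start, in exon 4 and at the end of the transcript, and those of Dcc at -14.5 and -10.8 points in introns.

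The Tiam1 sequences are printed because they show how CpGs are placed in both coding exons. The values used here do not name the CpGs behind each difference, so which of the printed CpGs were measured is unknown. They are the reference sequence of GRCm38.p6, the same build as mm10, read 5′ to 3′ on the minus strand of chr16, the strand of the gene, with each CpG in capitals. The first is the coding part of the exon 28 region (chr16:89789122-89789371), 250 bp with 16 CpGs that ends with the stop codon of Tiam1. The second is the stretch of 300 bp of the exon 4 region that held the most CpGs (chr16:89897686-89897985), 17 in all. Where a region was bounded by 1 base of a CpG, 1 base was added to print the pair whole. C3H/HeN mice may differ from this assembly, which was not tested.
Tiam1 exon 28, coding part: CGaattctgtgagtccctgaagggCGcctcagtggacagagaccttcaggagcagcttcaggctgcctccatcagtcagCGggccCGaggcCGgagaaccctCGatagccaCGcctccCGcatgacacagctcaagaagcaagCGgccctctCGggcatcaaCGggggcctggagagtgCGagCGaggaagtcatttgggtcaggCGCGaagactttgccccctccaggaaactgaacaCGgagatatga
Tiam1 exon 4, window: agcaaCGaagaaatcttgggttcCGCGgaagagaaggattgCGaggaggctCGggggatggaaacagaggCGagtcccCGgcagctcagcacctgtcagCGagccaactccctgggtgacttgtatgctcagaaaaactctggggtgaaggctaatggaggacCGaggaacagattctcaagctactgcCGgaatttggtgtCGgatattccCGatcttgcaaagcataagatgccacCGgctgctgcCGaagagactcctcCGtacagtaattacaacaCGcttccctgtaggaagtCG
The CpGs stand close together in both windows, though the exon 4 window was chosen for holding the most CpGs. The neighbouring CpGs of the whole regions were a median of 10.5 bp apart in exon 28, 16 bp in exon 4 and 30 bp in intron 1.

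The exon 28 region of Tiam1 (chr16:89789079-89789370, 292 bp) lay in the last exon of the gene. Of its bases, 249 were coding and 43 belonged to the 3′ UTR. The coding bases were codons 1510 to 1592 of 1592, the stop codon counted, and they were coding in 11 of 11 RefSeq transcripts of the gene, among them a short form in which they were codons 541 to 623 of 623 in exon 13 of 13. The deposited list gave it 16 CpGs, 1 differentially methylated cytosine (DMC) and a q-value of 0.00773. A DMC is a single CpG cytosine that the authors called by logistic regression. The reference sequence held 17 CpGs between the ends of the region, 16 of them coding. The C of a coding CpG stood at positions 1, 2 and 3 of its codon in 5, 4 and 7 cases. It listed 5.48 CpGs per 100 bp, against medians of 4.91 over exon regions and 4.12 over all regions. Of its listed CpGs, 6.25% were DMCs. Only 27 of the 577 regions (4.68%) listed as many CpGs, while every listed region held at least 1 DMC and 482 (83.5%) had a q-value as low.

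The exon 4 region of Tiam1 (chr16:89897531-89898319, 789 bp) was the longest of the 58 regions annotated to exons. It covered 715 coding bases of exon 4, the first coding exon of the gene, and 74 bases of the adjoining intron. The coding bases belonged to codons 83 to 321 and were coding in 9 of 11 RefSeq transcripts, while the other 2 begin downstream of the region. It listed 19 CpGs and 5 DMCs with a q-value of 6.46e-05, so 26.3% of its listed CpGs were DMCs. As many DMCs were found in 27 of 577 regions (4.68%), as many CpGs in 16 (2.77%), and 10 regions (1.73%) were as long. The reference held 36 CpGs there, 33 of them coding and 3 in the intron, and the C of the coding CpGs stood at positions 1, 2 and 3 of the codon in 8, 10 and 15 cases. Its CpGs were listed at 2.41 per 100 bp, below the lower quartiles of 3.33 over exon regions and 2.75 over all regions. This was the one region of Tiam1 with more than a single DMC and the one with the lowest q-value.

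The intron 1 region of Tiam1 (chr16:89959140-89959380, 241 bp) lay 1567 bp downstream of a transcription start site (TSS) of the gene, the nearest in the annotation of the list. It listed 4 CpGs and 1 DMC with a q-value of 0.00331. It was intronic in all 9 RefSeq transcripts that span it. Its share of CpGs, observed over expected from the base composition, was 0.3, against 0.64 in each of the exon regions and a median of 0.52 over the 576 regions placed on chromosomes. The start of Tiam1 differs among its transcripts. From the start of NM_001145886, a RefSeq transcript of 28 exons, the 3 regions lay at 15439, 76774 and 185475 bp. The list measured each region to the nearest start in its own annotation, which gave 1567, 62902 and 29128 bp for intron 1, exon 4 and exon 28. From the start of the longest transcript they lay at 186.3, 247.7 and 356.4 kb. The intron 1 region was therefore close to some annotated starts and far from others.

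**Figure D2:**
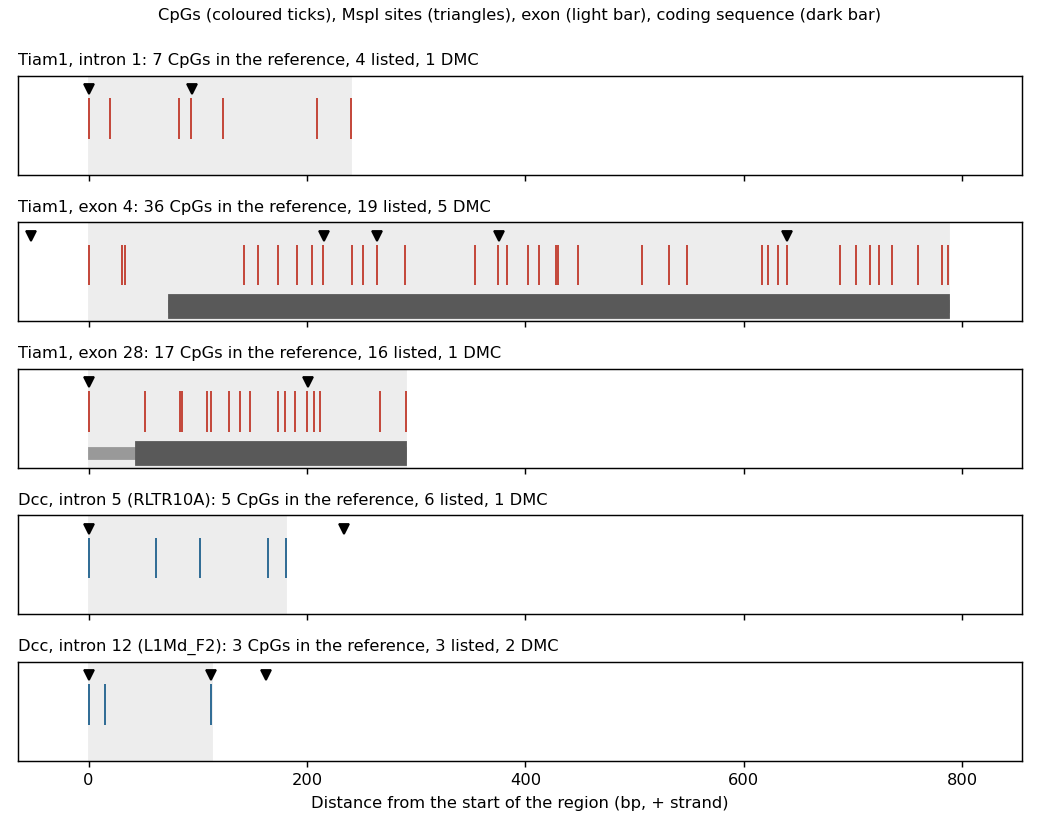
CpGs of the reference (coloured ticks), MspI sites (triangles), exons (light bars) and coding sequence (dark bars) within the 5 regions (grey shading), against the distance from the start of the region in bp on the plus strand. The exon 4 region of Tiam1 is 789 bp with 36 CpGs and 5 DMCs, and the Dcc regions hold 3 and 5 CpGs.

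The 3 regions of Tiam1 differed by at most 1.3 points in methylation difference while their listed CpGs ran from 4 to 19 and their lengths from 241 to 789 bp. The authors listed only regions above a set size of difference, and the smallest absolute value listed was 10.03 points. The quartiles of all regions with lower methylation were -13.8 and -10.9 points, so close values were common on the list. Among the 23 genes with several regions, Tiam1 ranked 6 and Dcc 16 by span of differences, smallest first. Exon 4 and intron 1 differed by 0.1 points, although exon 4 had 5 DMCs and intron 1 had 1. Exon 28 listed 16 CpGs, close to the 19 of exon 4, and had 1 DMC. The regions were not adjacent. The gap between exon 28 and exon 4 was 108160 bp, that between exon 4 and intron 1 was 60820 bp, and the whole stretch was 170302 bp. Because only 1 value per region was available, the differences between regions of one gene cannot be set against the spread between animals.

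The intron 12 region of Dcc (chr18:71538970-71539083, 114 bp) was annotated to L1Md_F2, a mouse L1 element of the long interspersed elements (LINEs), and 92.1% of its bases were repeat-masked in the reference. It listed 3 CpGs, the fewest that the authors accepted, and 2 of these were DMCs, a share of 66.7%. Its q-value was 1.10e-04. In the reference, the 3 CpGs of the region lay 15 and 97 bp apart. The region lay 812043 bp downstream of the TSS. Its difference of -10.8 points was the smallest loss of the 5 regions, and 77.5% of the 494 hypoDMRs, the regions with lower methylation in the arsenic group, had a larger one.

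The intron 5 region of Dcc (chr18:71700989-71701170, 182 bp) was annotated to RLTR10A, a long terminal repeat (LTR) of an endogenous retrovirus, and was repeat-masked over 100.0% of its bases. It listed 6 CpGs and 1 DMC with a q-value of 0.00199. It lay 649990 bp downstream of the TSS and had the largest loss of the 5 regions, -14.5 points, exceeded by 18.0% of the hypoDMRs. The reference held 5 CpGs within its ends, 1 fewer than listed. The gap between both regions was 161905 bp, and their differences were 3.7 points apart, more than the 1.3 points that separated the regions of Tiam1. The region with the larger loss had the smaller share of DMCs, 16.7%. Both regions lay in introns of each of the 2 RefSeq transcripts of Dcc.

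The listed CpG numbers were compared with the reference. Over the 576 regions placed on chromosomes, 229 (39.8%) listed more CpGs than the reference held between their ends, at most 2.0 times as many, and 0 listed more than the CpG cytosines of both strands together. The listed number was therefore read as one of cytosines on each strand. On that count, the list held 16 of 33 cytosines in exon 28 of Tiam1 (48.5%), 19 of 72 in exon 4 (26.4%) and 4 of 13 in intron 1 (30.8%). In Dcc it held 3 of 6 in intron 12 and 6 of 9 in intron 5 (66.7%). Over all regions the share was 49.5%. The exon 4 region of Tiam1 was thus long and held the most CpG cytosines of the 5, but listed the smallest share of them.

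The place of the sequences in the genome bears on how reads from them can be assigned. The central 100 bp of each region, converted as by bisulfite, was searched in the converted genome with up to 3 mismatches. Each region of Tiam1 had 1 placement, its own, and had 1 also with the central 50 bp. The L1Md_F2 region of Dcc had 1 placement with 100 bp and 2317 with 50 bp. The RLTR10A region had 132 placements with 100 bp, of which 2 were identical, and 313 with 50 bp. A single placement with 100 bp was found for 34.8% of 115 regions in LINEs, 45.9% of 109 in LTR elements and 95.3% of 321 with no repeat annotation. The 3 regions of Tiam1 were like most regions outside repeats, while the RLTR10A region of Dcc had many close copies. Whether reads from copies elsewhere entered the value of that region was not tested.

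Other copies of both elements were on the list. L1Md_F2 gave its name to 33 regions, of which 32 had lower and 1 higher methylation in the arsenic group, with a median of -11.5 points. The Dcc region was the 21st of these from the largest loss. RLTR10A gave its name to 7 regions, 5 lower and 2 higher, with values from -17.9 to 21.5 points, and the Dcc region had the second largest loss. The single larger loss, of -17.9 points, lay in an intron of Gm35986. The Dcc regions were thus within the range of other copies of the same element, near the middle in L1Md_F2 and near the lower end in RLTR10A.

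**Figure D3:**
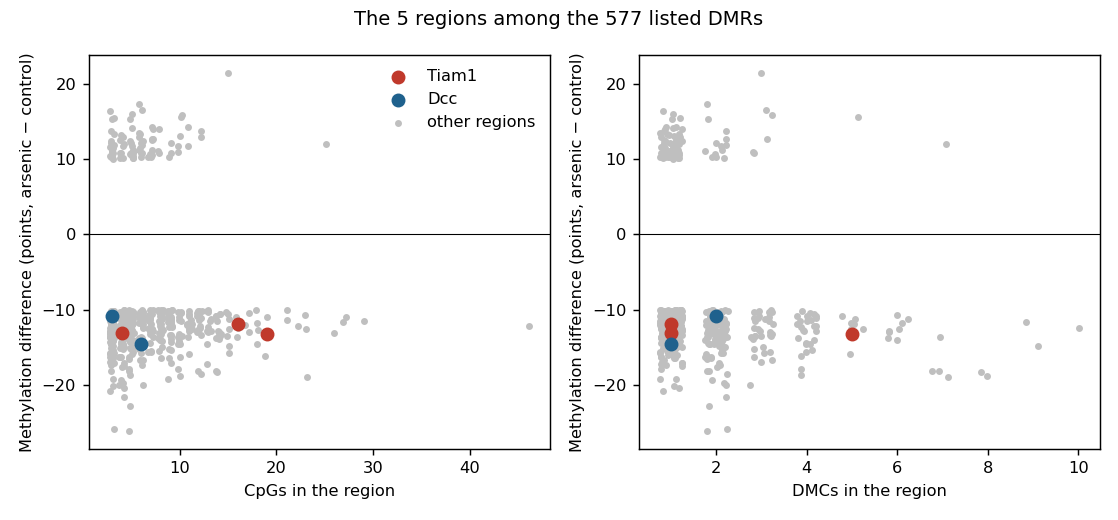
Methylation difference (arsenic minus control, in percentage points) against the number of listed CpGs (left) and of DMCs (right) for the 577 regions, with Tiam1 in red, Dcc in blue and small random shifts of the grey points so that they do not overlap. The members lie between -10.8 and -14.5 points, and the exon 4 region of Tiam1 stands out by its 19 CpGs and 5 DMCs.

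In size of difference the 5 regions were ordinary for the list, whose hypoDMRs had a median of -12.3 points and a largest loss of -26.1 points. Of the hypoDMRs, 33.2% had a larger loss than exon 4 of Tiam1, 35.4% than intron 1 and 55.7% than exon 28. Among the 157 hypoDMRs that were not intergenic, the same shares were 31.2%, 33.1% and 52.9%. A single DMC was carried by 3 of the 5 regions and by 372 of all 577 (64.5%). Of the listed CpGs, 7 of 39 were DMCs in Tiam1, a share of 17.9%, and 3 of 9 in Dcc, 33.3%, beside 24.7% over all regions. Each listed region had to hold at least 1 DMC, so these shares depend on the call itself and are given as a description. Of the 99 regions in introns, 30 (30.3%) lay in a LINE or LTR element, as both Dcc regions did.

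Several regions for one gene were uncommon on the list. Of the 577 regions, 1 on an unplaced contig had no gene name, and the other 576 named 550 genes, of which 527 had 1 region, 20 had 2 and 3 had 3, so 23 genes (4.18%) had more than 1. Besides Tiam1, the genes with 3 regions were 5730507C01Rik and Ppp1r2-ps9, and all their regions were intergenic. The regions of 5730507C01Rik were all lower and lay within 2.1 points of each other, and those of Ppp1r2-ps9 ran from -14.2 to 13.3 points. Tiam1 and Dcc were the 2 genes of the 23 with every region in an exon or intron, whereas 21 had at least 1 intergenic region. The other genes with 2 regions included 1700017J07Rik, 2900040C04Rik, 4933411E08Rik, 4933430N04Rik, Abcc12, Bmp7, Celf4, Dad1, Dtwd2, Fam110b, Gm19782, Gm20738, Gm20854, Gm20871, Gm6455, Mir3964, Rprl1 and Slc25a33. Regions of one gene had the same lower direction in 18 of the 23 genes and opposite directions in 5. Tiam1 was the one gene of the 23 with a region within 2000 bp of a TSS, and its 39 listed CpGs were the most of any of them. The regions of one gene were 170 kb apart in the median of 26 gaps, against 162 kb in Dcc and 108 and 60.8 kb in Tiam1. Neighbouring regions along all chromosomes were 2318 kb apart in the median. Regions of one gene share it as their nearest gene, so their gaps are short by the grouping and nothing is read from this contrast.

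**Figure D4:**
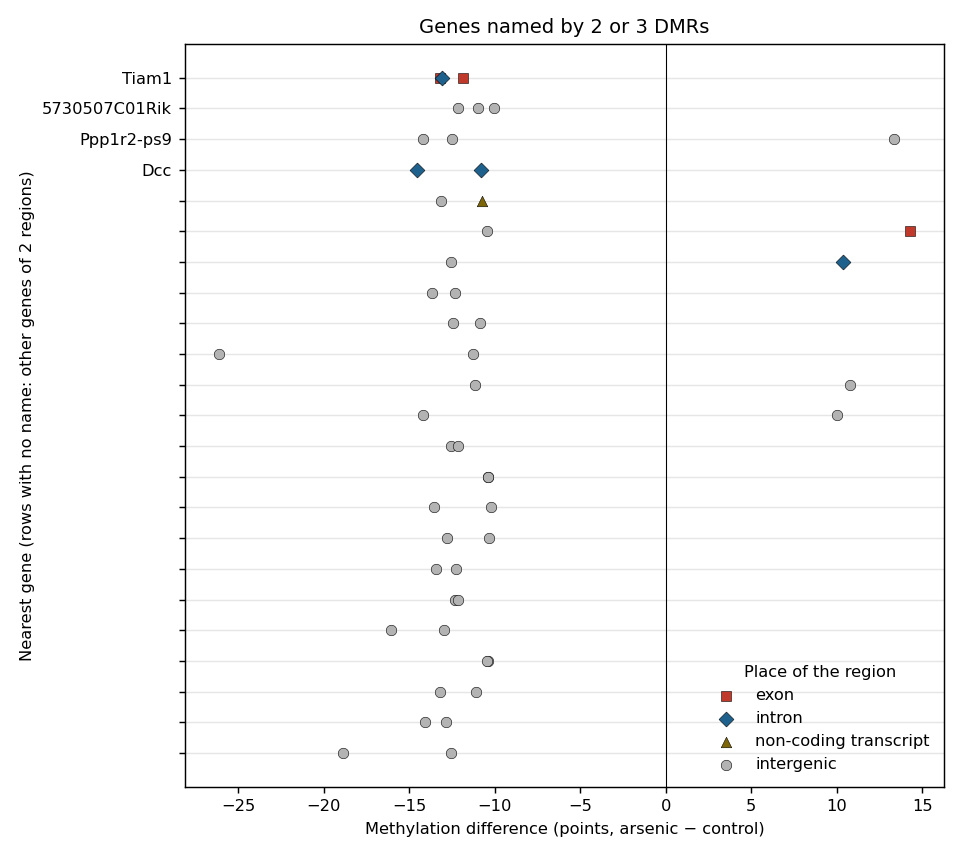
Methylation difference (arsenic minus control, in percentage points) of each region of the 23 genes named by 2 or 3 regions, with 1 row per gene, the genes with 3 regions and Dcc named, and the place of the region as the marker. The 3 regions of Tiam1 fall within 1.3 points and the 2 of Dcc within 3.7, and these are the genes of the 23 with no intergenic region.

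Counting by overlap with gene bodies in place of the nearest TSS, 243 regions lay in a RefSeq gene and 4 genes held more than 1. They were Tiam1 with 3 and Dcc, Igh and Igk with 2 each. Igh and Igk are the immunoglobulin heavy and kappa chain loci and are annotated as whole loci. Of the 190 protein-coding genes that held a region, Tiam1 and Dcc were the 2 with several. A region in overlapping gene models counted for each of them, here and in the counts of coding genes below. Both genes are long, at 358 kb for Tiam1 and 1098 kb for Dcc, and 423 (1.93%) and 47 (0.215%) of 21887 coding genes were at least as long, the gene itself included.

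The genes also differed in the number of candidate fragments, a count from the reference that is not the number of fragments read. Candidate fragments were MspI fragments of 40 to 220 bp with at least 3 CpGs, taken from the reference. Tiam1 held 61 of them and Dcc 14, against a median of 11 in the coding genes with a region and 3 in all coding genes. Tiam1 was thus rich in such fragments, with 38 coding genes (0.174%) holding at least as many, itself included, and 5 of these were among the 190 genes with a region. Dcc was CpG-poor for its length, at 5.65 CpGs per kb against 17.8 in Tiam1. The regions numbered 4.92 per 100 candidate fragments in Tiam1 and 14.3 in Dcc, and 0.156 over all coding genes. Both genes were chosen for their several regions, so these ratios are a description and nothing is read from them. The denominator for Dcc was small, and its regions hardly touched the fragments counted in it. The RLTR10A region lay on a fragment of 233 bp, outside the candidate lengths. The L1Md_F2 region lay over a fragment of 112 bp with 2 CpGs, too few to be counted, and reached by 2 bp into a counted fragment of 50 bp.

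**Figure D5:**
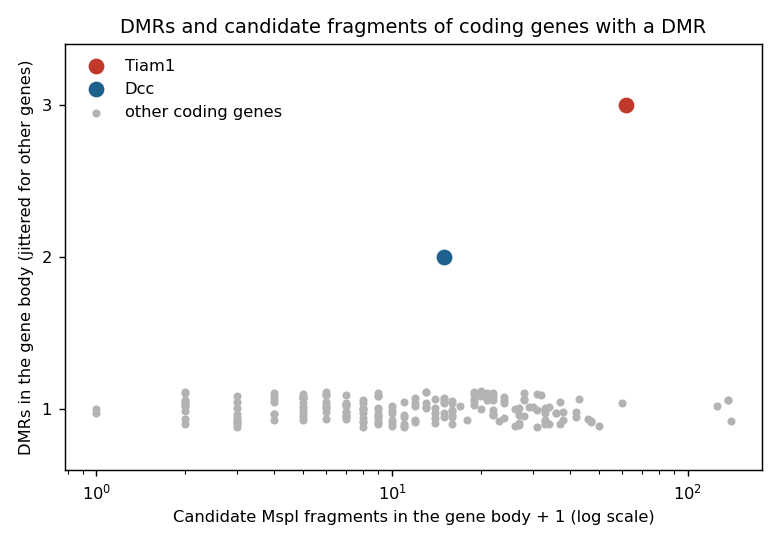
Number of regions in the gene body against the number of candidate MspI fragments plus 1 (log scale) for the 190 coding genes with a region, with the points of the other genes shifted slightly so that they do not overlap. Tiam1 has 3 regions over 61 fragments and Dcc 2 over 14, and each other gene has 1.

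The ends of the regions were compared with the MspI cuts. Of the 5 regions, 4 began at the first base after an MspI cut, as did 270 of 576 regions (46.9%), and the exception was exon 4 of Tiam1. The exon 4 region touched 5 fragments of 49 to 268 bp and held 4 CCGG sites, as many as 16 of 576 regions (2.78%) did. The exon 28 region touched fragments of 193 and 200 bp, and the intron 1 region fragments of 94 and 220 bp. In Dcc the L1Md_F2 region touched fragments of 50 and 112 bp and the RLTR10A region that of 233 bp.

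Genes that act with TIAM1 and DCC were looked up in 5 lists of 97 genes, of which 3 were named by a region, namely Tiam1, Dcc and Unc5d. By gene body, 4 of the 96 listed genes found in RefSeq held a region, and 2 of 94 without Tiam1 and Dcc, beside 190 of all 21887 coding genes (0.868%), so few regions were to be found in lists of this size. Among 15 netrin receptors and ligands, Dcc and Unc5d had one. Unc5d encodes a netrin receptor of the UNC5 family, and its region in intron 17 of 17 (chr8:28661184-28661472, 10 CpGs, 1 DMC, q-value 3.18e-04) had 13.1 points higher methylation in the arsenic group, opposite to Dcc. In the list of 24 genes, mostly of exchange factors that include those for RAC, Tiam1 alone was named. That list was a selection, and Arhgef26, an exchange factor gene outside it, was also named by a region (-11.0 points). Kalrn, which encodes an exchange factor for RAC, had a region in its intron 18 of 59 (chr16:34215038-34215226) that the list assigned to Umps by the nearest TSS. That region had a difference of -10.3 points with 9 CpGs, 1 DMC and a q-value of 0.00382. By either assignment there were 0 regions in the lists of 15 netrin signalling genes and of 27 small GTPases and RAC effectors. The list of 21 other axon guidance genes also had 0. At the share over all coding genes, lists of this size would mostly have none. The 21 axon guidance genes were a selection from larger families. Outside it, Plxnc1 (11.0 points), Efna4 (-11.7 points) and Epha7 (-10.7 points) of the plexin, ephrin and Eph receptor families were named by a region. A gene without a region on the list may have had no or too few covered CpGs, no DMC, a smaller difference or no significant one. These cannot be told apart here.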

How the data were processed

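Sperm DNA of 5 arsenic and 5 control F1 males was analysed by RRBS. According to the methods and labels, reads were trimmed (Trim Galore) and mapped to mm10 (Bismark) by the authors. CpGs with a coverage of 10 or more in each of the 10 samples were retained, DMCs were called with methylKit, and DMRs were formed with eDMR and annotated with HOMER. The deposited table of 577 regions and 23 columns gives the number of CpGs and DMCs per region, the authors' q-value, and a methylation difference, a signed score in percentage points with no scaling beyond the group means. It holds 1 pooled value per region, so no model between animals was fitted and no test was made.

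Regions were placed on GRCm38.p6 and its RefSeq transcripts, positions counted from 1. Fragments were cut in silico at MspI sites, and placements of bisulfite-converted windows were counted on both strands with numba 0.67.0 in Python 3.11.15, which gave the right count for 20 of 20 windows planted in a simulated genome. The text names each region of Tiam1 and Dcc, every gene with at least as many regions as Dcc, except 1 not reported here, and every listed pathway gene with a region. Of the 97 listed genes 96 were found in RefSeq. The members and the gene lists were chosen with earlier results of these data known. Alternatives were stricter limits on q-value, DMCs, CpGs and difference, gene body overlap for the nearest TSS, other fragment sizes, merging regions within 10 kb, weighted means and other placement windows.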

Additional observations from a re-analysis of the deposited data

How the results depend on the processing

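Where at least 2 DMCs were required, Tiam1 kept 1 of its 3 regions, the one in exon 4, and Dcc kept 1 of its 2. With at least 5 CpGs, or with an absolute difference of at least 12 points, Tiam1 kept 2 and Dcc kept 1. With regions counted by gene body overlap, 4 genes in place of 23 held several. Where a fragment needed at least 5 CpGs, regions per 100 candidate fragments were 9.68 in Tiam1, 66.7 in Dcc and 0.244 over all coding genes. For Dcc that was 2 regions over only 3 fragments, none of which its regions touched, so nothing is read from it. With fragments of 40 to 300 bp the ratios were 3.57 in Tiam1, 8.7 in Dcc and 0.123 over all coding genes. The q-value limit of 0.01 left all 5 regions, and weighted means or medians moved the mean of Tiam1 to between -12.6 and -13.1 points and that of Dcc to between -12.7 and -13.3. No paired analysis was possible because the table holds 1 value per region and none per animal, and for the same reason no animal could be left out. With 1 to 5 DMCs per region and the read depth unknown, the precision of each difference cannot be given.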
